A study of Homo sapiens with 3 samples.

Results

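The 38 DNA repair genes described here were taken by name from 18692 gene symbols listed in at least 1 of 3 single-cell count tables. No measured value entered the rule, but the members were chosen with earlier results of these data known. They fall into 7 roles: homologous recombination (10 genes), checkpoint kinases (4), the Fanconi anaemia pathway (10), end joining (5), base excision and single-strand break repair (4), nucleotide excision (3) and mismatch repair (2). The cultures were ldR-H460, mdR-H460 and their parent H460, an established line grown from a human large-cell carcinoma of the lung. The labels name ldR-H460 and mdR-H460 as long-term and mid-term dR-H460 cell lines. Their growth protocol describes preparing reprogrammed cancer cells on gelatin with irradiated human fibroblasts as feeders and medium conditioned by such fibroblasts. The labels also carry a code for each library, with D30 for ldR-H460, D13 for mdR-H460 and P57 for H460, and do not say what the codes stand for. The sources used here do not otherwise give what dR stands for, how long either derivative was cultured or whether either is 1 clone. Each culture gave 1 library of barcoded 3' ends of polyadenylated RNA, so no difference has a replicate check, no p-value was computed, and each ratio describes a pair of libraries from related cells.

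DNA repair works through separate routes for separate lesions. Breaks through both strands are copied back from the sister chromatid by BRCA1, BRCA2 and their partners after replication, or rejoined directly by the Ku proteins, DNA-PK and LIG4 at any time. The Fanconi proteins unhook crosslinks between the strands, PARP1 with XRCC1 and LIG3 mends single-strand breaks, XPC and XPA lead the removal of bulky lesions, and MSH6 with PMS2 acts on mismatches. ATM and ATR signal damage to the checkpoint kinases CHEK2 and CHEK1, and many genes of the recombination and Fanconi routes are known targets of E2F factors, which act around entry into S phase.

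The libraries held 4956 cells in ldR-H460, 5151 in mdR-H460 and 4531 in H460, with 60468481 to 66624830 unique molecular identifiers (UMIs) each and a median of 11736 to 14685 UMIs per cell. Levels are in CPM, UMIs scaled to a common library total, and brackets after a ratio hold a 95% interval that covers counting error and nothing else. All 38 members reached 1 CPM in the higher of any 2 libraries compared. Barcodes shared between libraries numbered 24 to 36 per pair, and 0 were in all 3. No ldR-H460 cell had 4000 or more detected genes, against 504 cells of mdR-H460 and 681 of H460, and the mitochondrially encoded share was 6.80% in ldR-H460, 5.21% in mdR-H460 and 4.80% in H460. Of the epithelial markers KRT8, KRT18, KRT19 and EPCAM, 4 of 4 had UMIs in each library (summed 1738, 2575 and 3234 CPM in ldR-H460, mdR-H460 and H460), but EPCAM was near 0 at 0.132, 0.270 and 0.347 CPM. Of 10 feeder fibroblast markers, 5, 5 and 6 were above 0 with summed levels of 5.95, 3.90 and 15.6 CPM in the same order, and PDGFRA, THY1 and POSTN were listed in none. Of 5 pluripotency markers, NANOG, LIN28A and DPPA4 were listed in none, and SOX2 carried nearly all of the summed 5.72, 3.11 and 0.680 CPM. The part of these differences in the repair gene values was not tested.

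Repair genes that were higher in S than in G1 cells are treated further on, and stretches around the start sites of 5 of them are printed here because they hold the letters searched for. Promoter windows from 250 bases before to 50 bases after the start were available for 34 of 38 members in RefSeq's table for GRCh38.p14. NBN, FANCI, XRCC5 and PRKDC had no entry in it. The E2F-type letters TTTCCCGC, TTTCGCGC, TTTGCCGC and TTTGGCGC were searched on both strands, and none of the searched runs contains another. They stood in the windows of 9 of 34 members (26.5%), against 908 of 27305 windows of all genes (3.33%). Capitals mark the match, each stretch is written 5′ to 3′ on the gene's own strand, and a match is a description of letters, not a bound site. XRCC2 (chr7:152676113-152676150, minus strand) has its match beginning 21 bases after the start, FANCA (chr16:89816782-89816849, minus) 172 bases before it, FANCD2 (chr3:10026405-10026465, plus) 2 before it, LIG1 (chr19:48170421-48170488, minus) 114 before it, and MSH6 (chr2:47783118-47783173, plus) 3 after it.
XRCC2: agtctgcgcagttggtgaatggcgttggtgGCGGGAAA
FANCA: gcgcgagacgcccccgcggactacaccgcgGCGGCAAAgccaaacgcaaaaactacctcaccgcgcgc
FANCD2: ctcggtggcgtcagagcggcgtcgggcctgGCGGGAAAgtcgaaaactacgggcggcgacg
LIG1: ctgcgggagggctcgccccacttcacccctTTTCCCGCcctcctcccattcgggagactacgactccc
MSH6: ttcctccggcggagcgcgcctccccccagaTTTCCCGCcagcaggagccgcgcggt

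The other 4 members with a match were FANCC, with 2, XRCC6, XPC and PMS2. BRCA1, BRCA2 and BARD1 held none of these letters in this window. The search covered 1 window per gene (chr17:43170278-43170577 for BRCA1), and windows at other starts of a gene were not searched. A window need not lie at the start in use, so a lack of these letters holds for that window only. The CHR-type letters TTTGAA and TTCGAA, known from genes of G2 and mitosis, stood in 3 of 34 member windows (8.82%). They stood in 16.6% of all windows, the same unfiltered set.

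To find out how the derivatives differed from the parent in these genes, CPM ratios of each pair of libraries were compared, with 1.5-fold as the size past which a gene is counted. In ldR-H460 against H460, 9 of 38 members were at least 1.5-fold lower (23.7%, beside 21.9% of all 12151 genes measured) and 1 was at least 1.5-fold higher (2.63%, beside 11.6% of all genes). In mdR-H460 against H460, 11 of 38 were at least 1.5-fold lower (28.9%, beside 22.5% of 12002 genes) and 0 were higher, beside 6.21%. With CPM scaling the share of lower members was thus near that of all genes in both comparisons. Members past 1.5-fold higher were fewer than among all genes. The median log2 ratio of the members was -0.18 in ldR-H460 and -0.30 in mdR-H460, each against H460, beside -0.13 and -0.17 for all genes. Scaling with edgeR's TMM factors shifted the medians of all genes to -0.0069 and 0.018 and those of the members to -0.060 and -0.12. Only distances from the median of all genes can therefore be read without a choice of scaling. With these factors, 4 of 38 members were lower in ldR-H460 than in H460, beside 17.5% of all genes. In mdR-H460 against H460, 10 of 38 were lower, beside 15.0%. In ldR-H460 against mdR-H460, 4 of 38 members were at least 1.5-fold higher (beside 14.6% of 11799 genes) and 0 lower (beside 10.6%), with a median log2 ratio of 0.27 against 0.08 for all genes.

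At 2-fold, PALB2, CHEK2 and LIG4 were lower in ldR-H460 than in H460 (3 of 38, beside 10.9% of all genes) and 0 were higher (beside 5.43%). In mdR-H460 against H460, 5 were at least 2-fold lower, namely BRCA1, BRCA2, PALB2, RAD51D and CHEK2 (beside 10.1% of all genes), and 0 higher (beside 2.90%). Between ldR-H460 and mdR-H460 no member passed 2-fold in either direction, beside 5.14% of all genes higher and 4.42% lower. Among members at 10 CPM or more, 5 of 26 were 1.5-fold lower in ldR-H460 than in H460 and 1 higher (beside 18.9% and 8.57% of all such genes). In mdR-H460 against H460 the counts were 8 of 25 lower and 0 higher (beside 17.2% and 4.61%), and in ldR-H460 against mdR-H460 0 of 23 lower and 2 higher (beside 10.1% and 8.92%).

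**Figure D1:**
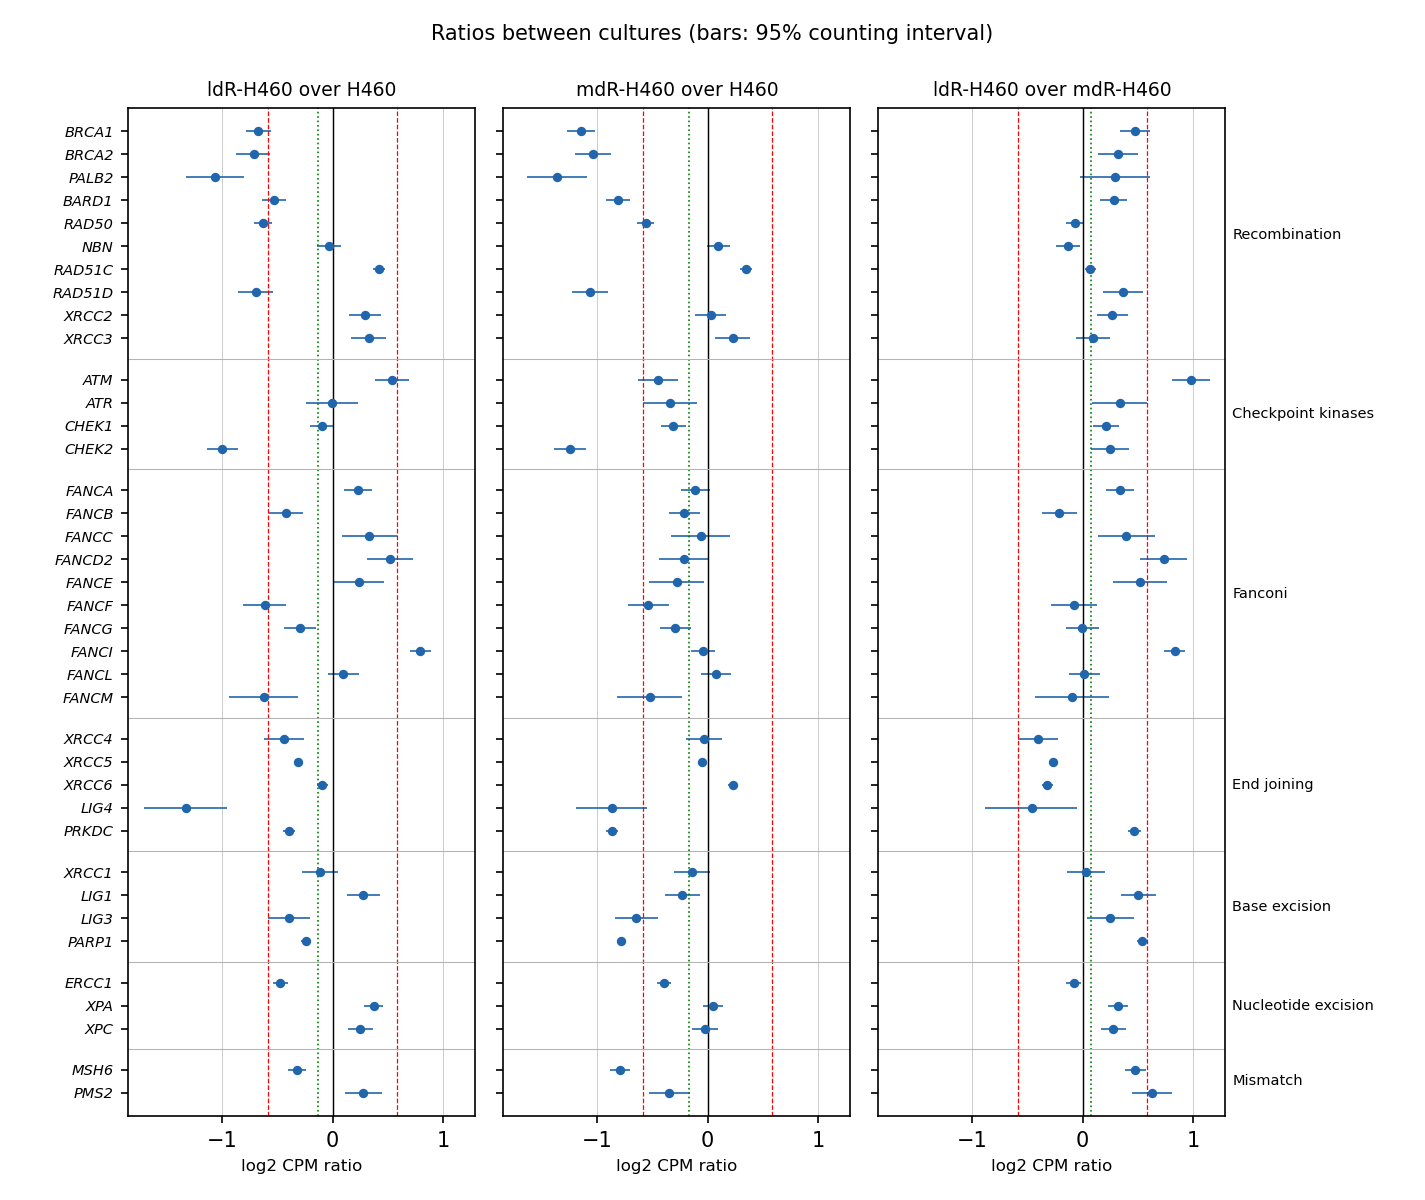
Log2 CPM ratios of the 38 repair genes for ldR-H460 over H460, mdR-H460 over H460 and ldR-H460 over mdR-H460, with bars for the 95% counting interval. Red dashed lines mark 1.5-fold in either direction and the green dotted line the median of all genes; FANCI lies beyond the upper line in the first panel (log2 ratio 0.79), and PALB2, CHEK2 and LIG4 lie farthest to the left there (-1.06, -1.0 and -1.33).

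The plot of ratios by role shows 1 course held by 9 members. Intervals of BRCA1, BRCA2, BARD1, RAD51D, CHEK2, PRKDC, LIG3, PARP1 and MSH6 lay below 1 in both derivatives against H460. In ldR-H460 against mdR-H460 they lay above 1, so mdR-H460 was the lowest of the 3 whole libraries (9 of 38, beside 9.28% of all 12261 genes). Within called cell cycle phases, treated further on, PRKDC, PARP1 and MSH6 kept ldR-H460 over mdR-H460 intervals above 1 in G1, S and G2/M cells. The intervals of BRCA1, BRCA2, BARD1, RAD51D, CHEK2 and LIG3 held 1 in at least 1 phase. For BRCA2 the ratio was 1.20 (0.978 to 1.46) in S cells and 0.976 (0.823 to 1.16) in G2/M cells. In 4 members (beside 11.8% of all genes), FANCB, XRCC5, LIG4 and ERCC1, the level was lower in ldR-H460 than in mdR-H460 and lower in mdR-H460 than in H460, although XRCC5 in mdR-H460 changed sign against H460 with TMM factors. FANCL and XRCC1 had intervals that held 1 in all 3 pairs (beside 7.37% of all genes). The comparisons share libraries, so these courses are descriptions of 3 levels.

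Of the 10 recombination genes, 5 were past 1.5-fold lower in ldR-H460 than in H460 (50%, beside 21.9% of all genes). In mdR-H460 against H460, 5 were lower as well (50%, beside 22.5%). They held 5 of the 9 lower members in ldR-H460 and 5 of the 11 in mdR-H460. Their medians were log2 -0.58 and -0.69, beside -0.13 and -0.17 for all genes. BRCA1, a ubiquitin ligase that directs breaks towards recombination (GRCh38, chr17:43044295-43170245), had 16.0 CPM in ldR-H460, 11.5 in mdR-H460 and 25.5 in H460. In whole libraries its level was lowest in mdR-H460 and highest in H460. It was 1.59-fold (1.47 to 1.73) lower in ldR-H460 and 2.21-fold (2.03 to 2.41) lower in mdR-H460 than in H460. In cells called G2/M its ratio of ldR-H460 over mdR-H460 was 1.11 (0.968 to 1.27). With TMM scaling BRCA1 in ldR-H460 stood at log2 -0.55, short of 1.5-fold. BARD1, its partner, had 19.8 CPM in ldR-H460, 16.3 in mdR-H460 and 28.6 in H460, 1.44-fold (1.34 to 1.55) lower in ldR-H460 and 1.76-fold (1.63 to 1.89) lower in mdR-H460. BRCA2, a mediator of strand exchange (chr13:32315474-32400266), had 8.93 CPM in ldR-H460, 7.14 in mdR-H460 and 14.7 in H460, 1.64-fold (1.48 to 1.83) lower in ldR-H460, or log2 -0.50 with equal weight per cell. PALB2, which bridges BRCA1 and BRCA2 (chr16:23603160-23641310), was at low levels throughout, with 2.91 CPM in ldR-H460, 2.37 in mdR-H460 and 6.09 in H460. The chain of 4 partners therefore had the same order of libraries, H460 above both derivatives, and PALB2 had the widest gap, 2.09-fold (1.75 to 2.51) lower in ldR-H460 and 2.57-fold (2.13 to 3.11) lower in mdR-H460.

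RAD51C, RAD51D, XRCC2 and XRCC3, which assist strand exchange, did not move as a group. RAD51D had 8.75 CPM in ldR-H460, 6.78 in mdR-H460 and 14.2 in H460, 1.62-fold (1.46 to 1.81) lower in ldR-H460 (log2 -0.58 with TMM factors) and 2.09-fold (1.87 to 2.34) lower in mdR-H460 than in H460. RAD51C went the other way, with 97.0 CPM in ldR-H460, 92.3 in mdR-H460 and 72.3 in H460. Its ratio over H460 was 1.34 (1.29 to 1.39) for ldR-H460 and 1.28 (1.23 to 1.33) for mdR-H460. Within called phases, RAD51C in ldR-H460 over H460 was 1.91 (1.72 to 2.13) in G1, 1.31 (1.23 to 1.39) in S and 1.01 (0.948 to 1.07) in G2/M cells. In G2/M cells it was lower in ldR-H460 than in mdR-H460, at a ratio of 0.881 (0.837 to 0.926). XRCC2 had 14.5, 12.0 and 11.8 CPM and XRCC3 11.2, 10.5 and 8.94 CPM in ldR-H460, mdR-H460 and H460. In whole libraries only RAD51D of these 4 passed 1.5-fold, in both comparisons with H460. RAD50, the arm of the complex that tethers broken ends, had 35.6 CPM in ldR-H460, 37.4 in mdR-H460 and 55.2 in H460, 1.55-fold (1.47 to 1.63) lower in ldR-H460, where TMM scaling left it short of 1.5-fold at log2 -0.51. NBN, another subunit of that complex, had 21.6 CPM in ldR-H460, 23.7 in mdR-H460 and 22.2 in H460, with intervals that held 1 for each derivative against H460. Exons of XRCC3 overlap those of KLC1 on the other strand, and the sources used here do not say whether counting used strand.

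Among the checkpoint kinases, CHEK2, which ATM switches on (chr22:28687743-28742422), had 9.96 CPM in ldR-H460, 8.38 in mdR-H460 and 19.9 in H460. It was 2.00-fold (1.81 to 2.21) lower in ldR-H460 and 2.38-fold (2.15 to 2.63) lower in mdR-H460, past 1.5-fold under every scaling, cell weight and depth filter tried. CHEK2 has near-identical partial copies elsewhere in the genome, which counting may have split. ATM itself (chr11:108222484-108369102) had 13.3 CPM in ldR-H460, 6.74 in mdR-H460 and 9.19 in H460, so ldR-H460 was the highest library and mdR-H460 the lowest. It was 1.98-fold (1.76 to 2.22) higher in ldR-H460 than in mdR-H460, the largest ratio among the members in that pair. ATR, which senses stalled replication, had 4.81 CPM in ldR-H460, 3.81 in mdR-H460 and 4.82 in H460. CHEK1, the kinase below ATR, had 20.2 CPM in ldR-H460, 17.4 in mdR-H460 and 21.6 in H460, within 1.5-fold in each pair.

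The Fanconi genes had 1 member past 1.5-fold higher and 2 lower of 10 in ldR-H460 against H460 (beside 11.6% and 21.9% of all genes). In mdR-H460 against H460 they had 0 in either direction (beside 6.21% and 22.5%). FANCI, which is clamped onto DNA together with FANCD2 (chr15:89243949-89317261), had 37.9 CPM in ldR-H460, 21.3 in mdR-H460 and 21.9 in H460. It stood apart in ldR-H460, 1.73-fold (1.62 to 1.85) higher than in H460 and 1.78-fold (1.67 to 1.91) higher than in mdR-H460. As whole libraries mdR-H460 and H460 were alike within counting error at a ratio of 0.972 (0.903 to 1.05). In cells called G2/M, FANCI in mdR-H460 over H460 was 0.759 (0.685 to 0.842), while in G1 and S cells the intervals held 1. FANCI was the member past 1.5-fold higher in ldR-H460 against H460 under every scaling, cell weight and depth filter tried, but in cells called G2/M the ratio to H460 was 1.18 (1.08 to 1.30), short of 1.5-fold. FANCD2 had 7.44 CPM in ldR-H460, 4.47 in mdR-H460 and 5.18 in H460, a ratio of 1.44 (1.25 to 1.66) for ldR-H460 over H460 and 1.66 (1.43 to 1.93) over mdR-H460. In whole libraries both genes of the clamp were thus highest in ldR-H460. Within called phases, FANCD2 in ldR-H460 over H460 was 1.11 in S cells and 1.21 in G2/M cells, with intervals that held 1. In G1 cells it was 1.84 (1.03 to 3.24), on 23 UMIs in ldR-H460 and 32 in H460. Over mdR-H460 the FANCD2 interval lay above 1 in G1, S and G2/M cells. FANCD2 has pseudogene copies that may share its reads, and exons of FANCI overlap POLG on the other strand.

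In the core complex that marks this clamp with ubiquitin, the members differed in direction. FANCF, an adaptor of the complex, had 5.77 CPM in ldR-H460, 6.08 in mdR-H460 and 8.82 in H460, 1.53-fold (1.34 to 1.75) lower in ldR-H460. FANCM, the translocase that brings the complex to DNA, had 2.30 CPM in ldR-H460, 2.46 in mdR-H460 and 3.54 in H460, 1.54-fold (1.24 to 1.91) lower in ldR-H460. Both fell short of 1.5-fold with TMM scaling, at log2 -0.49 for FANCF and -0.50 for FANCM. FANCB had 9.94, 11.5 and 13.3 CPM and FANCG 11.6, 11.6 and 14.2 CPM in ldR-H460, mdR-H460 and H460, lower than H460 in both derivatives within 1.5-fold. FANCA had 17.9, 14.1 and 15.3 CPM, FANCC 4.65, 3.53 and 3.69 CPM, and FANCE 5.42, 3.78 and 4.59 CPM in the same order, each highest in ldR-H460. Within cells called G1, S or G2/M, the intervals of FANCA, FANCC and FANCE in ldR-H460 over H460 held 1. FANCL, the ubiquitin ligase of the complex, had 13.6, 13.4 and 12.7 CPM and did not differ beyond counting error in any pair. Exons of FANCA and FANCL overlap those of ZNF276 and VRK2 on the other strand.

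In end joining, all 5 members had intervals below 1 in ldR-H460 against H460, beside 47.0% of all genes, and LIG4 was the 1 past 1.5-fold. XRCC6, at log2 -0.09, lay above the median of all genes (-0.13) and changed sign with TMM and DESeq2 factors. LIG4, the ligase that seals the ends (chr13:108207439-108218368), had the lowest level of the members in each library, with 1.37 CPM in ldR-H460, 1.89 in mdR-H460 and 3.44 in H460. It was 2.51-fold (1.94 to 3.27) lower in ldR-H460 and 1.82-fold (1.46 to 2.28) lower in mdR-H460, on 83, 126 and 228 UMIs in ldR-H460, mdR-H460 and H460. In cells thinned to 5000 UMIs LIG4 in mdR-H460 was at log2 -0.42, short of 1.5-fold. PRKDC, the catalytic subunit of DNA-PK, had 84.1 CPM in ldR-H460, 60.8 in mdR-H460 and 111 in H460, 1.82-fold (1.75 to 1.89) lower in mdR-H460 and 1.31-fold (1.27 to 1.36) lower in ldR-H460. XRCC5 and XRCC6, which encode the Ku80 and Ku70 subunits of the ring that binds broken ends, stayed within 1.5-fold in each pair. XRCC5 had 211 CPM in ldR-H460, 253 in mdR-H460 and 262 in H460. XRCC6 had 105 CPM in ldR-H460, 131 in mdR-H460 and 112 in H460. XRCC4, the scaffold of LIG4, had 6.88 CPM in ldR-H460, 9.10 in mdR-H460 and 9.32 in H460.

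The excision and mismatch genes showed their lowest values in mdR-H460 for the members past 1.5-fold. PARP1, the sensor of single-strand breaks (chr1:226360691-226408079), had 166 CPM in ldR-H460, 115 in mdR-H460 and 197 in H460, 1.72-fold (1.67 to 1.77) lower in mdR-H460 and 1.18-fold (1.15 to 1.22) lower in ldR-H460. MSH6, which binds mismatches (chr2:47695530-47810101), had 33.9 CPM in ldR-H460, 24.3 in mdR-H460 and 42.2 in H460, 1.74-fold (1.63 to 1.85) lower in mdR-H460. LIG3 had 6.40, 5.37 and 8.41 CPM in ldR-H460, mdR-H460 and H460, 1.57-fold (1.37 to 1.79) lower in mdR-H460, where TMM scaling left it at log2 -0.46. PARP1 and MSH6 kept their 1.5-fold gap in mdR-H460 under every scaling, cell weight and depth filter tried. PMS2, a subunit of the mismatch endonuclease, had 9.89 CPM in ldR-H460, 6.41 in mdR-H460 and 8.14 in H460, 1.54-fold (1.36 to 1.75) higher in ldR-H460 than in mdR-H460 (log2 0.56 with TMM factors), on counts that near-identical copies may share. LIG1, the replicative ligase, had 13, 9.14 and 10.7 CPM and XRCC1, the scaffold of LIG3, 9.11, 8.92 and 9.85 CPM in the same order. ERCC1, the partner of the nuclease ERCC4, had 49.1, 52.0 and 68.2 CPM, with H460 above both derivatives. XPA had 37.1, 29.6 and 28.6 CPM and XPC 21.8, 18.0 and 18.3 CPM, with ldR-H460 highest for both. Exons of ERCC1, XPC, MSH6 and LIG3 overlap those of CD3EAP, LSM3, FBXO11 and RFFL on the other strand.

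**Figure D2:**
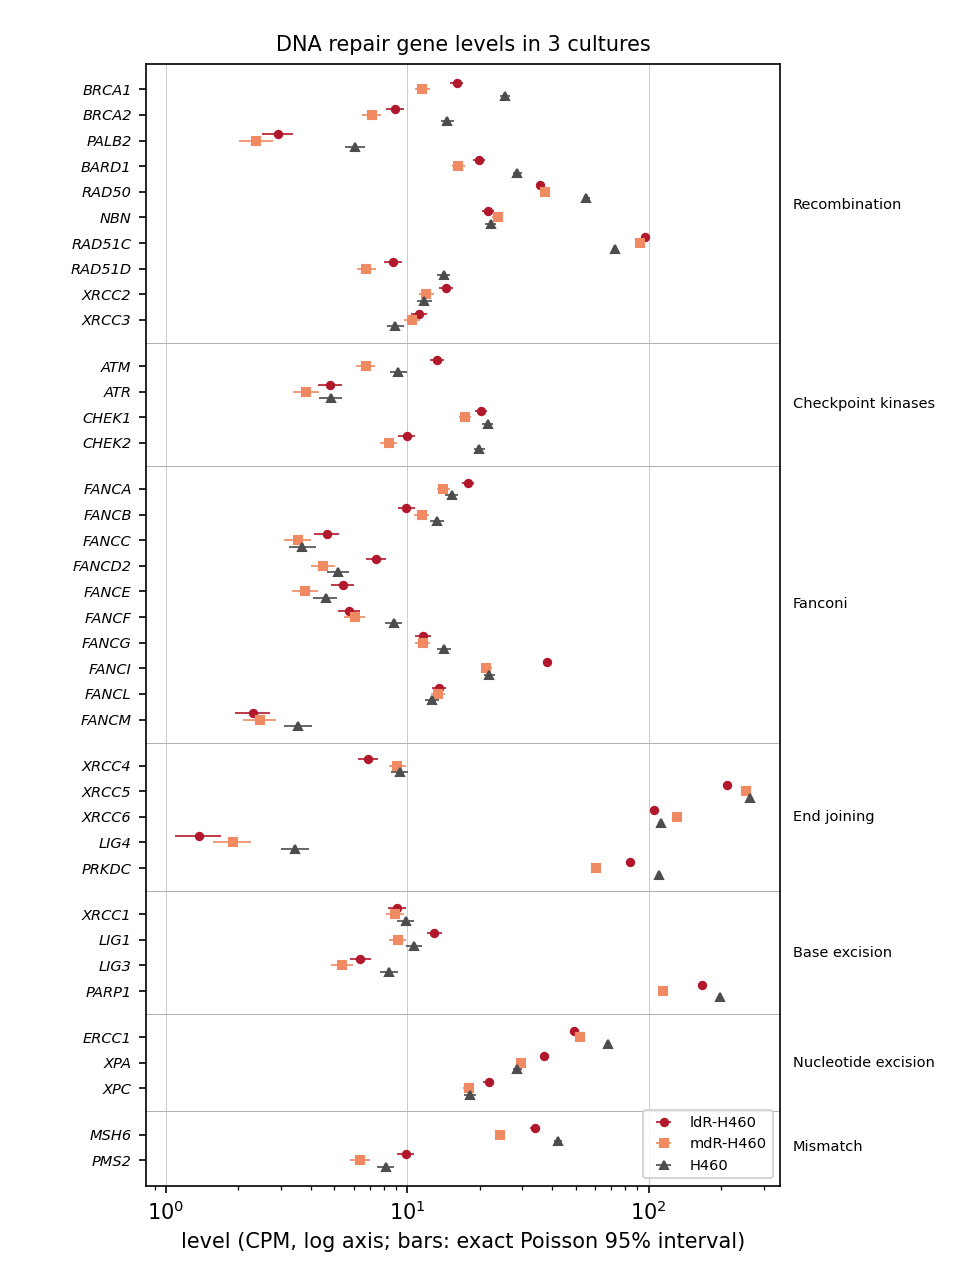
Levels of the 38 repair genes in ldR-H460 (circles), mdR-H460 (squares) and H460 (triangles) in CPM on a log axis, with exact Poisson 95% intervals, grouped by role. Levels run from LIG4 at 1.37 to 3.44 CPM up to XRCC5 at 211 to 262 CPM; for BRCA1, BRCA2, PALB2, RAD51D and CHEK2 the H460 triangle lies to the right of both derivatives.

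The plot of levels places partners of 1 complex at different heights, and how well each 3' end is captured differs between genes, so the ratios of 7 partner pairs were compared only across libraries. XRCC6 over XRCC5 was 0.50 (0.485 to 0.515) in ldR-H460, 0.519 (0.506 to 0.533) in mdR-H460 and 0.428 (0.417 to 0.440) in H460. The ratio of NBN over RAD50 was 0.607 (0.567 to 0.651) in ldR-H460, 0.635 (0.596 to 0.676) in mdR-H460 and 0.402 (0.378 to 0.427) in H460. In both pairs the intervals of the derivatives overlapped each other and lay above that of H460. XRCC4 over LIG4 was 5.01 (3.95 to 6.42) in ldR-H460, 4.81 (3.96 to 5.87) in mdR-H460 and 2.71 (2.32 to 3.16) in H460, again with both derivatives above H460. BARD1 over BRCA1 was highest in mdR-H460, at 1.41 (1.29 to 1.55), against 1.24 (1.14 to 1.35) in ldR-H460 and 1.12 (1.05 to 1.20) in H460. LIG3 over XRCC1 was lowest in mdR-H460, at 0.603 (0.527 to 0.688), against 0.702 (0.615 to 0.801) in ldR-H460 and 0.854 (0.762 to 0.958) in H460. The interval of mdR-H460 lay clear of that of H460 in both of these pairs, while that of ldR-H460 overlapped both others. FANCI over FANCD2 was 5.10, 4.75 and 4.22 in ldR-H460, mdR-H460 and H460, with intervals that overlapped. CHEK1 over ATR had overlapping intervals in all 3 libraries, at 4.20, 4.57 and 4.48 in ldR-H460, mdR-H460 and H460.

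To see how the members followed the cell cycle, cells with at least 5000 UMIs were thinned to 5000 and called G1, S or G2/M from published S and G2/M lists, which hold no member. G1 calls made up 15.6% (14.6 to 16.7, exact binomial interval) of 4521 ldR-H460 cells, 33.7% (32.2 to 35.2) of 3880 mdR-H460 cells and 35.3% (33.8 to 36.8) of 3850 H460 cells. G2/M calls made up 45.8%, 36.8% and 24.1% and S calls 38.6%, 29.5% and 40.6% in ldR-H460, mdR-H460 and H460. Phase calls can read free RNA and library differences, so they are labels for groups of cells here and not a measure of cycling.

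In S over G1 cells, 20 of 38 members were at least 1.5-fold higher in ldR-H460 (52.6%, beside 16.4% of all genes outside the phase lists), 20 in mdR-H460 (beside 15.5%) and 23 in H460 (beside 12.0%). None of the members was 1.5-fold lower in S than in G1 cells in any of the 3 libraries, beside 13.1%, 18.9% and 8.87% of all genes in ldR-H460, mdR-H460 and H460. The share of members higher in S cells was thus above that of all genes in each library. In all 3 libraries at once 17 of 38 members were at least 1.5-fold higher, beside 7.09% of all genes: BRCA1, BRCA2, BARD1, XRCC2 and XRCC3 of recombination, FANCA, FANCB, FANCD2, FANCE, FANCG, FANCI, FANCL and FANCM of the Fanconi route, and CHEK1, LIG1, PARP1 and MSH6. These 17 include 8 of 10 Fanconi members and 0 of 5 end joining members. With phases called within each library, 16 of the 17 stayed and RAD51D took the place of FANCL. In G2/M over G1 cells the counts were 17, 20 and 21 of 38 in ldR-H460, mdR-H460 and H460, beside 16.5%, 14.6% and 11.9% of all genes, with 15 members higher in all 3 libraries beside 6.64%. Lower in all 3 libraries were 0 members in S cells and 0 in G2/M cells, beside 3.39% and 5.17% of all genes.

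**Figure D3:**
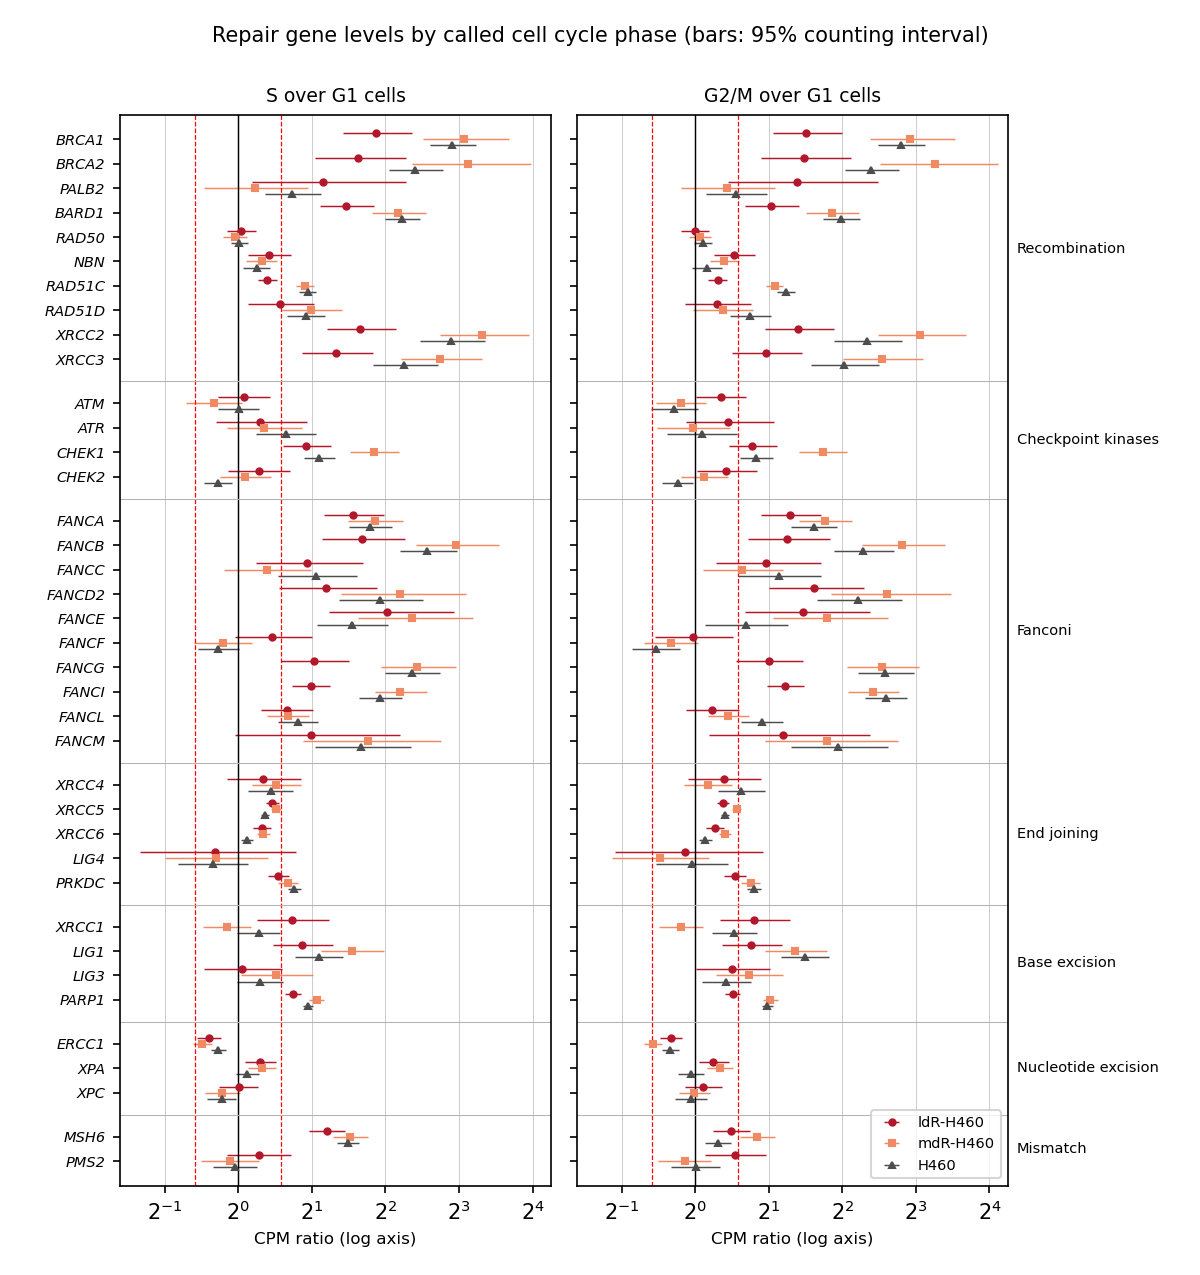
CPM ratios of S over G1 cells (left) and of G2/M over G1 cells (right) on a log axis for each member in ldR-H460 (circles), mdR-H460 (squares) and H460 (triangles), with 95% counting intervals and red dashed lines at 1.5-fold in either direction. BRCA1, BRCA2 and XRCC2 reach 7.49, 5.31 and 7.44 in S over G1 cells of H460, LIG4, XPA, XPC and ERCC1 lie between 0.713 and 1.25 in S over G1 cells of all 3 libraries, and ldR-H460 circles lie left of the other symbols for most of the members that are high in S cells.

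The plot by phase shows wide rises between G1 and S cells in members of both the recombination and the Fanconi routes. FANCE had the widest in ldR-H460, with a ratio of S over G1 cells of 4.07 (2.36 to 7.61), against 5.15 in mdR-H460 and 2.91 in H460. FANCB had 3.20 in ldR-H460, 7.76 in mdR-H460 and 5.94 in H460. BRCA1 had 5.53, 20.3 and 15.7 CPM in G1, S and G2/M cells of ldR-H460, 1.87, 15.6 and 14.2 CPM in those of mdR-H460, and 4.78, 35.8 and 33.2 CPM in those of H460. The BRCA1 ratio of S over G1 cells was 3.66 (2.68 to 5.13) in ldR-H460, 8.37 (5.68 to 12.8) in mdR-H460 and 7.49 (6.06 to 9.35) in H460, so the ldR-H460 interval lay below both others. XRCC2, with an E2F-type match just after its start, had ratios of 3.15 (2.30 to 4.43) in ldR-H460, 9.93 (6.66 to 15.4) in mdR-H460 and 7.44 (5.54 to 10.2) in H460. BRCA2, with none in its window, had 3.10 (2.06 to 4.85) in ldR-H460, 8.68 (5.12 to 15.8) in mdR-H460 and 5.31 (4.16 to 6.86) in H460. Members of either kind were thus among those high in S cells: 5 of the 16 with a promoter window held a match, as did 4 of the 18 other members. FANCI had 1.98 (1.66 to 2.38) in ldR-H460, 4.60 (3.62 to 5.92) in mdR-H460 and 3.81 (3.13 to 4.66) in H460, and its ratio of G2/M over G1 cells was 2.33, 5.34 and 6.02 in the same order. MSH6 was highest in S cells, with 20.1, 46.1 and 28.1 CPM in G1, S and G2/M cells of ldR-H460, 12.7, 36.4 and 22.6 CPM in mdR-H460 and 23.3, 65.8 and 28.9 CPM in H460.

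RAD50, ATM, CHEK2, ERCC1 and LIG4 stayed within 1.5-fold between S and G1 cells in each library. RAD50 had ratios of S over G1 cells of 1.03 (0.895 to 1.18) in ldR-H460, 0.971 (0.869 to 1.09) in mdR-H460 and 1.01 (0.932 to 1.09) in H460. ATM and CHEK2, which signal breaks in any phase, had 1.05 and 1.21 in ldR-H460, 0.794 and 1.07 in mdR-H460 and 1.0 and 0.826 in H460, where the CHEK2 interval lay below 1. ERCC1 was the member whose interval lay below 1 in S over G1 cells of every library, at 0.758 (0.679 to 0.847) in ldR-H460, 0.713 (0.652 to 0.779) in mdR-H460 and 0.829 (0.774 to 0.888) in H460. LIG4 had 0.801, 0.812 and 0.787 in ldR-H460, mdR-H460 and H460, with intervals that held 1. PRKDC, unlike LIG4, was higher in S than in G1 cells, at 1.46 (1.32 to 1.62) in ldR-H460, 1.60 (1.45 to 1.76) in mdR-H460 and 1.70 (1.60 to 1.81) in H460, past 1.5-fold in mdR-H460 and H460.

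Several members high in S cells had a higher level in G1 cells of ldR-H460 than in those of the other libraries. FANCI had 18.8 CPM in G1 cells of ldR-H460, against 5.26 CPM in mdR-H460 and 6.14 CPM in H460. XRCC2 had 5.53 CPM in G1 cells of ldR-H460, 1.73 in mdR-H460 and 2.47 in H460. XRCC3 had 5.53, 2.13 and 2.62 CPM in G1 cells of ldR-H460, mdR-H460 and H460. The summed S list from which phases were called was also highest in ldR-H460 among G1 cells, by a smaller margin than these genes. It had 559, 1872 and 1328 CPM in G1, S and G2/M cells of ldR-H460. In the same phases it had 404, 2128 and 1673 CPM in mdR-H460 and 509, 2450 and 1982 CPM in H460. Only 707 cells were called G1 in ldR-H460, against 1307 in mdR-H460 and 1358 in H460, and the part of the phase calls in these G1 levels was not tested.

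Within each called phase, the lower levels of the BRCA group against H460 were found in S and G2/M cells of both derivatives. In S cells 10 members were at least 1.5-fold lower in ldR-H460 than in H460 (beside 23.9% of all genes) and 1 higher (beside 12.7%), and in G2/M cells 12 were lower (beside 21.4%) and 1 higher (beside 12.4%). In G1 cells 5 were lower (beside 26.9%) and 6 higher (beside 14.8%): RAD51C, XRCC2, XRCC3, FANCD2, FANCG and FANCI. BRCA1 was 1.77-fold (1.58 to 1.98) lower in S cells and 2.12-fold (1.87 to 2.39) lower in G2/M cells of ldR-H460, while in G1 cells its ratio to H460 was 1.16 (0.787 to 1.67) on 43 UMIs in ldR-H460 and 95 in H460. PALB2, CHEK2 and LIG4 were past 1.5-fold lower in ldR-H460 in each of the 3 phases. PALB2 was 3.37-fold (1.75 to 7.27) lower in G1 cells, 2.51-fold (1.89 to 3.38) in S cells and 1.90-fold (1.44 to 2.52) in G2/M cells. CHEK2 was 2.82-fold (2.16 to 3.75) lower in G1 cells, 1.92-fold (1.64 to 2.26) in S cells and 1.79-fold (1.53 to 2.09) in G2/M cells.

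In mdR-H460 against H460, 16 members were at least 1.5-fold lower in G1 cells (42.1%, beside 20.9% of all genes), 13 in S cells (34.2%, beside 25.6%) and 11 in G2/M cells (28.9%, beside 25.6%), and 0 were higher in any phase (beside 9.08%, 7.09% and 6.53%). BRCA1, BRCA2, PALB2, BARD1, RAD51D, CHEK2, LIG4, PRKDC, LIG3 and PARP1 were past 1.5-fold lower in all 3 phases. PRKDC was 1.81-fold (1.65 to 1.99) lower in G1 cells, 1.92-fold (1.80 to 2.05) in S cells and 1.87-fold (1.76 to 1.98) in G2/M cells, intervals that overlap. PARP1 was 1.86-fold (1.72 to 2.01) lower in G1 cells, 1.72-fold (1.64 to 1.80) in S cells and 1.81-fold (1.73 to 1.89) in G2/M cells. Between the derivatives, 15 members were at least 1.5-fold higher in ldR-H460 than in mdR-H460 among G1 cells (39.5%, beside 18.4% of all genes), against 2 in S cells (beside 16.3%) and 3 in G2/M cells (beside 18.1%). At least 1.5-fold lower in ldR-H460 were 3 members among G1 cells (beside 17.4% of all genes), 2 among S cells (beside 10.4%) and 0 among G2/M cells (beside 9.11%). ATM was 1.48-fold (1.11 to 1.97) higher in G1 cells, short of 1.5-fold, 1.96-fold (1.58 to 2.45) higher in S cells and 2.15-fold (1.82 to 2.56) higher in G2/M cells, and FANCI passed 1.5-fold in all 3 phases.

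**Figure D4:**
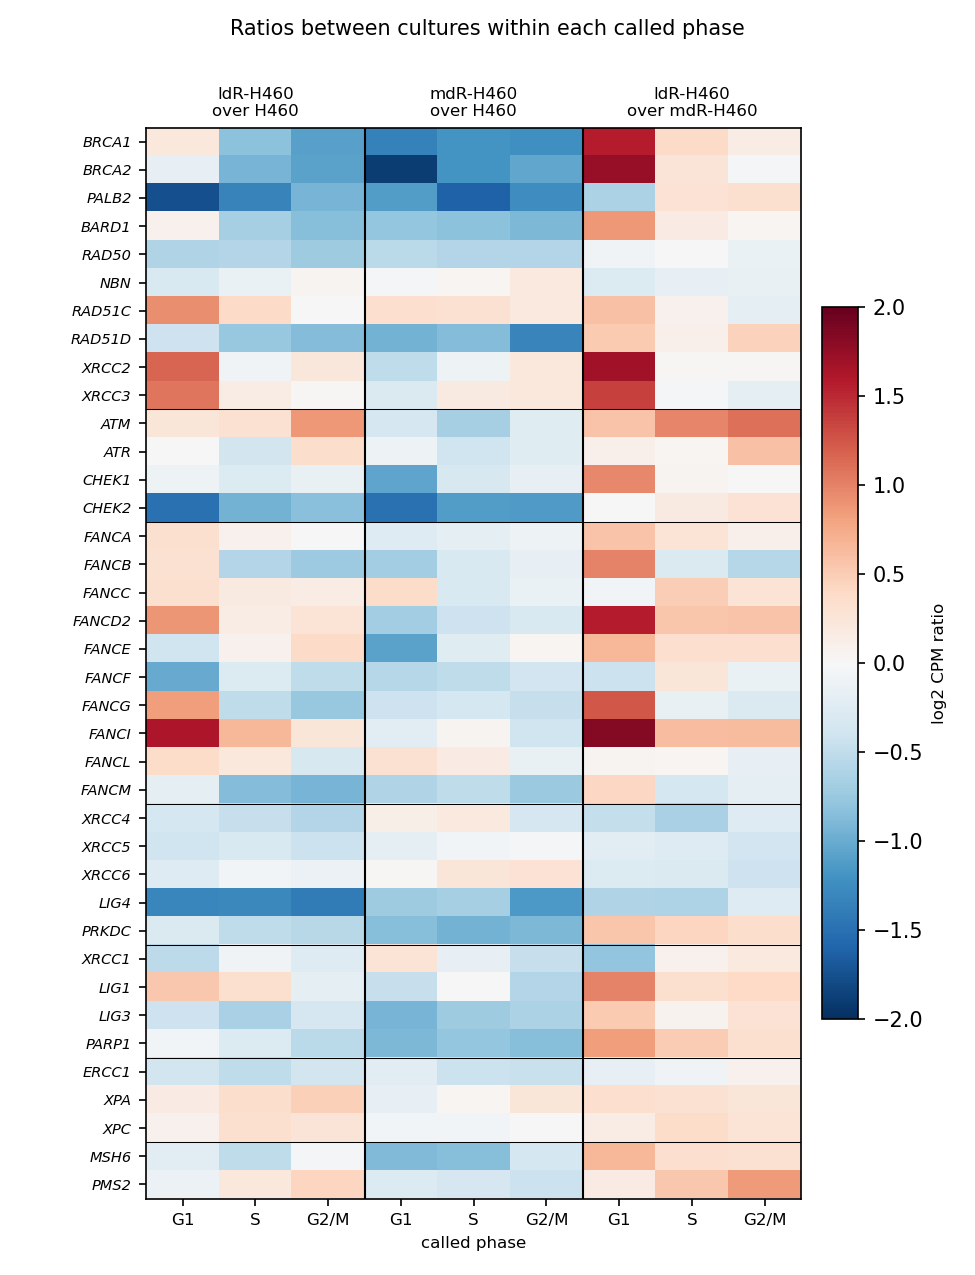
Log2 CPM ratios of each member within cells called G1, S and G2/M, for ldR-H460 over H460, mdR-H460 over H460 and ldR-H460 over mdR-H460 from left to right; blue is lower and red higher in the first-named library. PALB2, CHEK2 and LIG4 are blue in all 3 phases in both comparisons with H460, and the G1 column of ldR-H460 over mdR-H460 holds the red of BRCA1, BRCA2, XRCC2, FANCD2 and FANCI.

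Genes that start beside the members were read as well. Of 38 members, 20 (52.6%) have a protein-coding gene on the other strand whose start lies within 1000 bases in GENCODE's annotation of GRCh38, against 2586 of 19940 protein-coding genes (13%). A start here is the outermost end of the annotated gene. Other starts of the same gene were not considered, so a neighbour need not lie beside the start in use. HSCB, a chaperone of iron-sulfur clusters that starts beside CHEK2, had 15.4 CPM in ldR-H460, 17.8 in mdR-H460 and 28.2 in H460, log2 -0.87 and -0.66 in ldR-H460 and mdR-H460 against H460, beside -1.0 and -1.25 for CHEK2. NBR1, a receptor of autophagy, starts 236 bases from the outermost annotated start of BRCA1. It had 6.35 CPM in ldR-H460, 6.87 in mdR-H460 and 11.0 in H460. DCTN5, a dynactin subunit beside PALB2, had 12.1 CPM in ldR-H460, 15.2 in mdR-H460 and 19.9 in H460. These 3 neighbours were highest in H460, as their partners were. Of all 13 neighbours that reached 1 CPM in a library, 6 were highest in H460: 5 of the 8 beside a member highest in H460, and 1 of the 5 beside another member. The share of all genes highest in H460 was not computed, so these counts have no rate to be read against. The median log2 ratios of all genes were -0.13 in ldR-H460 and -0.17 in mdR-H460, each against H460. ABHD13 beside LIG4 had 5.77, 7.61 and 8.38 CPM in ldR-H460, mdR-H460 and H460. MCM4, a subunit of the replicative helicase beside PRKDC, differed from its partner, with 31.9 CPM in ldR-H460, 22.2 in mdR-H460 and 22.7 in H460. NPAT beside ATM was lower in ldR-H460 than in H460 (log2 -0.48, beside 0.54 for ATM), and TMEM167A beside XRCC4 was higher (log2 0.45, beside -0.44 for XRCC4). The neighbours named here were chosen after their values were seen.

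For the rest of the repair system, 105 further genes were listed by route, of which 104 were found in the tables, and 101 passed the same minimum. In ldR-H460 against H460, 21 of 101 were at least 1.5-fold lower (20.8%, beside 21.9% of all genes) and 1 higher (0.990%, beside 11.6%), with a median of log2 -0.16 (beside -0.13 for all genes). In mdR-H460 against H460, 17 were lower (16.8%, beside 22.5%) and 0 higher (beside 6.21%), with a median of -0.27 (beside -0.17), and in ldR-H460 against mdR-H460, 6 were lower (5.94%, beside 10.6%) and 6 higher (5.94%, beside 14.6%), with a median of 0.07 (beside 0.08). The base excision list had 8 of 20 lower in ldR-H460 (beside 21.9% of all genes) and 2 of 20 lower in mdR-H460 (beside 22.5%), each against H460. The 8 include the glycosylases OGG1, with 7.43 CPM in ldR-H460, 10.7 in mdR-H460 and 14.1 in H460, and NEIL1, with 0.645 CPM in ldR-H460, 1.5 in mdR-H460 and 1.92 in H460. ERCC4, the nuclease that works with ERCC1, had 5.92 CPM in ldR-H460, 7.40 in mdR-H460 and 13.1 in H460, 2.21-fold (1.96 to 2.51) lower in ldR-H460, and ERCC6, which couples excision to transcription, was 2.61-fold (2.03 to 3.39) lower. UBE2T, the conjugating enzyme that works with FANCL, had 126 CPM in ldR-H460, 152 in mdR-H460 and 250.1 in H460, 1.99-fold (1.94 to 2.05) lower in ldR-H460. CLSPN, a mediator between ATR and CHEK1, was 1.85-fold (1.77 to 1.93) lower and the nuclease gene MUS81 1.74-fold (1.56 to 1.94) lower in ldR-H460 than in H460. ABRAXAS1, a scaffold of the BRCA1-A complex, was the 1 gene past 1.5-fold higher, with 13.4 CPM in ldR-H460, 7.65 in mdR-H460 and 8.34 in H460. The polymerase genes POLM and POLQ had 1.69 and 2.68 CPM in ldR-H460, against 3.43 and 4.05 CPM in H460. The mismatch genes MSH3 and MLH3 had 10.2 and 4.58 CPM in ldR-H460, against 15.7 and 8.08 CPM in H460. ALKBH3, which reverses alkylation, had 9.67 CPM in ldR-H460, against 16.7 CPM in H460. With CPM scaling all 5, POLM and POLQ included, were past 1.5-fold lower. Other repair genes are given with CPM scaling only. TMM factors moved the median of all genes in ldR-H460 against H460 from log2 -0.13 to -0.0069. Genes just past 1.5-fold lower, such as POLQ at log2 -0.60, may therefore fall short with them.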

How the data were processed

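The authors deposited 1 table of UMI counts per culture, with gene symbols in rows and cells in columns. The values were whole numbers without normalization, and per the series design text the cells are those the authors kept after quality filtering. The submitters' processing notes name Cell Ranger 3.0.2, Seurat 3.0 and the build GRCh38 but give no role for any of them, and the sources used here do not state an annotation release. Unlisted symbols were set to 0. CPM were computed from UMIs summed per library. No doublet caller was run, and all 14638 cells were kept. Ratios have 95% exact binomial-based intervals, levels exact Poisson intervals and shares exact Clopper-Pearson intervals. UMIs of 1 library share its cells, so these cover counting error only. Genes that reached 1 CPM in either of the 2 libraries compared were measured, and were counted past 1.5-fold. Phases were called in scanpy 1.11.5 on cells thinned to 5000 UMIs, and 435 cells of ldR-H460, 1271 of mdR-H460 and 681 of H460 below that were left out of phases. The ratio script was tested on simulated counts. Alternatives were edgeR 4.0.16 TMM factors, DESeq2 1.42.0 size factors, a total without mitochondrially encoded and ribosomal protein genes, equal weight per cell, thinned cells, cell filters, single phases, other minimum levels and 2-fold. A weighting of phases by the H460 shares and phase calls within each library were added after the data were seen. Every member is named. Of each group of other repair genes, up to 2 with the largest and up to 2 with the smallest ratio of ldR-H460 over H460 are named where past 1.5-fold. The members and lists were chosen with earlier results of these data known. Promoter sequences come from RefSeq's table for GRCh38.p14 and gene positions from GENCODE's annotation of GRCh38, which may differ from that of the submitters. Older symbols of the same genes were used where a table lists them.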

Additional observations from a re-analysis of the deposited data

How the results depend on the processing

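The members' log2 ratios were recomputed under 11 alternatives for each pair of libraries. Of 1254 recomputed values, 865 moved by less than their counting interval, 388 moved further, and 1 changed sign after having been past 1.5-fold, BRCA1 in G1 cells of ldR-H460 against H460 (log2 0.21). In ldR-H460 against H460, members past 1.5-fold higher numbered 3 with TMM factors (beside 15.1% of all genes under that setting), 3 with DESeq2 size factors (14.5%), 2 without mitochondrially encoded and ribosomal protein genes (14.2%), 2 with equal weight per cell (12.3%), 2 among cells under 4000 detected genes (12.0%), 6 in G1 cells (14.8%) and 0 at 2-fold (5.43%), against 1 as reported (11.6%). Members past 1.5-fold lower numbered 4 with TMM factors (17.5% of all genes), 5 with DESeq2 size factors (18.0%), 5 in G1 cells (26.9%), 5 of 26 at 10 CPM or more (18.9%) and 3 at 2-fold (10.9%), against 9 (21.9%). With both factors the shares of all genes moved the same way as the members' counts. ATM (log2 0.65) and FANCD2 (0.64) joined FANCI as higher with TMM factors. The median log2 ratio was -0.060 with TMM factors, -0.074 with DESeq2 size factors and -0.29 in G2/M cells, against -0.18. In mdR-H460 against H460, members past 1.5-fold lower numbered 10 with TMM factors (15.0% of all genes) and 10 with DESeq2 size factors (15.3%), against 11 (22.5%). At 2-fold there were 5 (10.1%). The median was -0.12 with TMM factors and -0.48 in G1 cells, against -0.30. In ldR-H460 against mdR-H460, members past 1.5-fold higher numbered 11 with equal weight per cell (17.1% of all genes), 7 among cells under 4000 detected genes (14.4%), 15 in G1 cells (18.4%), 2 in S cells (16.3%), 2 of 23 at 10 CPM or more (8.92%) and 0 at 2-fold (5.14%), against 4 (14.6%). Members past 1.5-fold lower there numbered 1 in thinned cells (12.3%), 3 in G1 cells (17.4%) and 2 in S cells (10.4%), against 0 (10.6%). The median there was 0.53 in G1 cells, 0.13 in S cells and 0.13 in G2/M cells, beside 0.0047, 0.07 and 0.12 for all genes, against 0.27. Counts fall at 2-fold and at 10 CPM by construction, and for the other settings the cause was not tested. The phase weighting and the requirement that the counting interval lie past 1 changed no count by more than 1.5 times. No paired analysis was possible because each culture has 1 library. Depth limits members at low levels in G1 cells: FANCM rests on 9 UMIs in ldR-H460, 13 in mdR-H460 and 26 in H460, LIG4 on 12, 35 and 76, and PALB2 on 10 in ldR-H460.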
